A study of Homo sapiens with 20 samples.

Results

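The widest stretches of H3K27ac in LNCaP cells were examined. H3K27ac regions of the 2 control siRNA libraries were merged where they overlapped by 1 bp or more, and 54904 merged regions on chromosomes 1 to 22 and X were present in both libraries. Of these, 670 (1.22%) were 10000 bp or wider and are called wide domains here. They held 8.03% of the length of all shared regions, 11.2 Mb in all. The domains were chosen on their width in the control libraries, so that width, and any change of H3K27ac from those libraries, is given as a description with no test of difference.

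LNCaP is an androgen-responsive prostate cancer cell line. No engineered allele is described. The cells were transfected with 20 nM of a control siRNA or of a CTCF siRNA pool (siCTCF), were transfected again part-way, and chromatin was taken at 144 h. H3K27ac, H3K4me3 and CTCF were each profiled by ChIP-seq in 2 libraries per treatment, described as biological duplicates. CTCF lists of IMR90, a fetal lung fibroblast line treated with the same siRNAs, dose and time, were used for comparison.

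H3K27ac is an acetylation of histone H3 found at active promoters and enhancers, and H3K4me3 is a methylation of the same histone found mainly at active promoters. Long, nearly unbroken stretches of H3K27ac are known in many cell types from genes that define the cell's identity. CTCF is a zinc-finger protein that binds a long DNA motif, stops the movement of cohesin along the chromosome and often lies at the borders of chromatin domains.

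CTCF sites inside and at the ends of the domains are shown first, because fewer of them kept a peak after CTCF siRNA than of all control sites. Each sequence below is 30 bases of GRCh37 around the best match to the CTCF consensus within 100 bp of the peak summit, with up to 2 mismatches on either strand. Capitals mark the 14 bases matched, and the sequence is written on the strand of the match. A control site is a merged CTCF peak present in both control libraries. It is persistent when both siCTCF libraries also had a peak there, and lost otherwise.
The first 4 are persistent sites inside domains, the fifth is a persistent site at a domain's end, and the last 4 are among the strongest lost sites whose peak overlapped a domain. The SLC45A3 summit and the bases shown lie just left of the domain, which only the edge of that peak overlaps.
FBXL17 intron, chr5:107596444-107596473, + strand: ggcaatggCCACTAGATGGCACcaaactac
TLCD1 coding exon, chr17:27054004-27054033, + strand: gctcctagCCACTAGGTGTCAGcctgccct
LSP1P5 intron, chr2:91815197-91815226, + strand: gagcgcaaCCAGCAGGGGGCGCtggcgtct
end of the MALAT1 domain, chr11:65278401-65278430, - strand: caatttgtTCACTAGATGGCAGcaagagcc
PTPRF intron, chr1:43994958-43994987, + strand: ctcctcatACGCCAGGGGGCGCacacgcac
TRAF4 UTR or non-coding exon, chr17:27077285-27077314, - strand: gcatttcaTCGGCAGAGGGCAGtggcaggg
SLC45A3 UTR or non-coding exon, chr1:205626847-205626876, - strand: agtggccaCCAGCAGGTGGAGGcatagacc
HPN intron, chr19:35535428-35535457, + strand: aggtctctCCACAAGGTGGCGCcagtggtt
RHOF UTR or non-coding exon, chr12:122232291-122232320, + strand: gcccgaaaCCACTAGGGGCGGCcgcctcct
The FBXL17 and LSP1P5 matches had 0 mismatches, the TLCD1, MALAT1, SLC45A3 and HPN matches had 1, and the PTPRF, TRAF4 and RHOF matches had 2. A match of this kind lay at 185 of the 302 control sites inside the domains (61.3%; 95% Wilson interval 55.7 to 66.6) and at 74% of all 33377 control sites.

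The domains ranged from 10000 to 209500 bp, with a median of 12875 bp. Most were near the lower limit, with 455 of 670 under 15000 bp and the upper quartile at 16500 bp. Just inside the limit, at 10000 bp, were domains at HGD, GTF2E1 and STXBP5L, and just outside it, at 9950 bp, regions at PHF20, ZMYND8 and KIAA1671. A merged region can be wide through one library alone. A single region overlapped the domain in each control library at 187 domains, and both libraries held a region of at least 10000 bp at 270.

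The widest domain, chr7:50651301-50860800 in GRB10, an adaptor protein of insulin receptor signalling, was 1 region in control replicate 1 and 17 regions in control replicate 2. The domain was covered over 100% and 97.1% of its length by H3K27ac in the controls and over 95.7% and 97.9% after CTCF siRNA. All 4 libraries thus covered nearly the whole domain, while the number of pieces differed widely between the control replicates. The next in width lay at ST3GAL1, a sialyltransferase (130850 bp), PPP3CA, the catalytic subunit of calcineurin (125300 bp), KDM6A, a histone H3K27 demethylase (112600 bp), and PPFIA2, a liprin (99100 bp). RASSF3, the kinase gene PRKD1, the let-7b host gene MIRLET7BHG, PRUNE2, a second stretch of PPFIA2, the hydrolase gene ABHD2 and the miR-99a host gene MIR99AHG completed the 12 widest, down to 60150 bp.

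**Figure D1:**
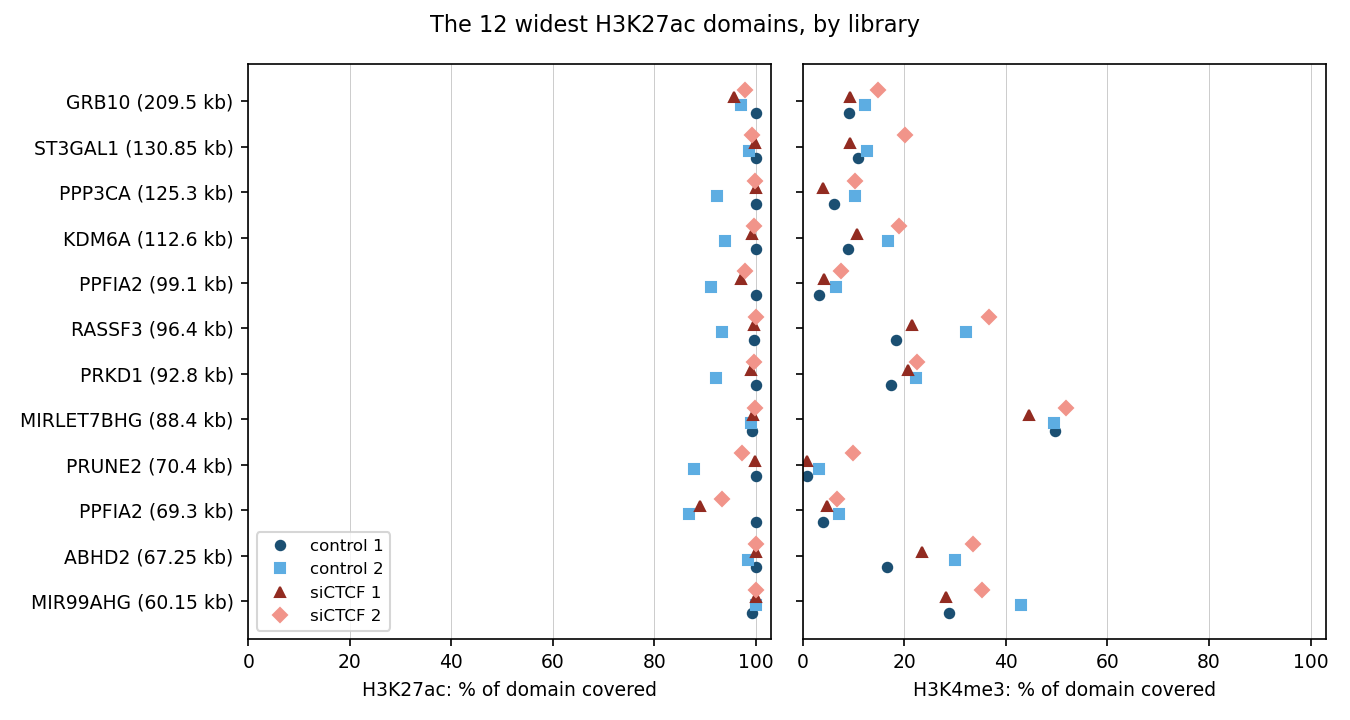
Percent of the length of each of the 12 widest domains covered by H3K27ac regions (left) and by H3K4me3 regions (right), with one point for each of the 2 control and 2 siCTCF libraries. H3K27ac covered at least 86.8% of each of these domains in every library, whereas H3K4me3 covered 0.781% to 51.9%.

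Wide domains often lay next to each other. With a gap of up to 20000 bp allowed, 189 domains formed 74 clusters of 2 or more. The longest cluster held 10 domains over 333650 bp at MIR99AHG, followed by 8 at PVT1, a non-coding RNA gene beside MYC, 7 at PPP3CA, and 5 each at PRUNE2, PRKD1 and KDM6A. Domains of one cluster share a locus, and counts of domains weigh such loci more than once. Chromosome 21, which carries MIR99AHG and TMPRSS2, had 29 domains, or 3.40% of its shared regions, the highest share of any chromosome, and chromosome 13 had the lowest with 0.602%. By length, chromosome 19 was the densest with 6.60 domains per 10 Mb.

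A protein-coding start site lay inside 243 domains (36.3%; Wilson interval 32.7 to 40.0). The share was 28.9% in regions of 5000 to under 10000 bp and 13.9% over all shared regions. By length the order was reversed. The domains held 3.14 starts per 100 kb, against 5.69 in regions of 5000 to under 10000 bp and 7.16 in those under 5000 bp. Another 326 domains overlapped a protein-coding gene without covering a start, and 101 overlapped none. The domains overlapped the bodies of 650 of 20098 protein-coding genes (3.23%). This and the counts by gene list below were not adjusted for gene length. The domains with most starts were 3 parts of the histone gene cluster on chromosome 6, and compact blocks such as the one that holds RPL7A, MED22, SURF1 and SURF2 on chromosome 9. Median GC content set the domains little apart from narrower regions: it was 45.8%, against 46.1% in regions of 5000 to under 10000 bp and 44.7% in regions under 5000 bp. The median ratio of observed to expected CpG was 0.282, 0.272 and 0.227 in the same order. Domains with a protein-coding start had medians of 50.0% GC and 0.404, against 43.1% and 0.230 in those without.

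The prostate genes of LNCaP cells were well represented. Of 11 luminal prostate markers, 8 were overlapped by a wide domain, among them KLK2, KLK3, TMPRSS2, FOXA1, HOXB13, SLC45A3 and FOLH1, against 0 of 6 basal, 0 of 7 neuroendocrine, 0 of 10 stromal, 0 of 2 endothelial and 1 of 4 immune markers. The immune marker was CD68, which lies in a block that also holds EIF4A1 and SENP3. The luminal keratin genes KRT8 and KRT18 had no wide domain, with widest shared regions of 6850 and 6450 bp. Of 32 androgen-induced genes, 18 were overlapped, and of 24 luminal transcription factors, 10 were. Of the other lists, 6 of 12 prostate and nuclear non-coding RNAs, 8 of 22 growth and cell cycle genes, 1 of 10 epithelial genes and 0 of 11 CTCF and cohesin genes were overlapped.

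At the kallikrein locus, which encodes secreted prostate proteases, 3 wide domains lay side by side. KLK15, KLK3, the gene of prostate-specific antigen, and the start of KLK2 shared one of 30650 bp at chr19:51335801-51366450. Its H3K27ac cover was 97.4% and 96.1% in the controls and 97.9% and 100% after CTCF siRNA. Both siCTCF libraries lay above both controls there, as they did at 12.2% of all shared regions. The next domain, chr19:51369351-51386850, lay in KLK2, and the third, chr19:51387351-51413700, at KLK4. After CTCF siRNA a single merged region of 46300 bp spanned both of these, bridging the short gap between 51386850 and 51387351. The KLK4 domain held a control CTCF site with no peak in either siCTCF library. The study reported no significant change of H3K4me3 or H3K27ac across the kallikrein locus after CTCF siRNA. It also reported CTCF sites that persisted at the border between the active and the silenced kallikrein genes.

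TMPRSS2, a membrane protease gene induced by androgen, carried domains of 14750 and 15050 bp. H3K4me3 covered 63.1% to 73.4% of the second and was at 0% in all 4 libraries over the first. Each held a control CTCF site, and neither site had a peak after CTCF siRNA. FOLH1, which encodes prostate-specific membrane antigen, had a domain of 45100 bp with H3K27ac cover between 98.8% and 99.8% in every library. PLPP1, a lipid phosphatase gene, had 4 domains, of which the widest, 36800 bp, covered its start. STEAP2, a metalloreductase gene, had one of 38900 bp.

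Of the 18 androgen-induced genes with a domain, 9 had it over their start. The luminal transcription factor genes with a domain had it over their start in 10 of 10 cases, with no adjustment for gene length. The ETS factor gene EHF had the widest, 54500 bp at chr11:34640301-34694800, covered between 98.3% and 100% in each library. FOXA1, a pioneer factor that opens chromatin in prostate cells, lay in 23550 bp at chr14:38053601-38077150. Cover at FOXA1 was 100% and 91.9% in the controls and 95.5% and 98.9% after CTCF siRNA, within the spread of the controls. HOXB13, a homeobox factor that marks the prostate, lay in 15850 bp with PRAC1 and PRAC2, and TBX3 in 18800 bp. H3K4me3 covered 81.4% to 83.6% of the HOXB13 domain and 92.3% to 98.7% of the TBX3 domain, against 30.0% to 39.2% of the length of all wide domains. GRHL2, a grainyhead factor of epithelial cells, had 3 domains, SPDEF 2, and GATA2, ELF3 and ZBTB7B 1 each.

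STEAP1, a gene of the same family as STEAP2, and the growth gene SOX4 had lower cover. At STEAP1 the cover was 100% and 70.8% in the controls and 62.6% and 77.6% after CTCF siRNA, and at SOX4 100% and 53.0% against 41.0% and 65.0%. Both of these groups overlapped.

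**Figure D2:**
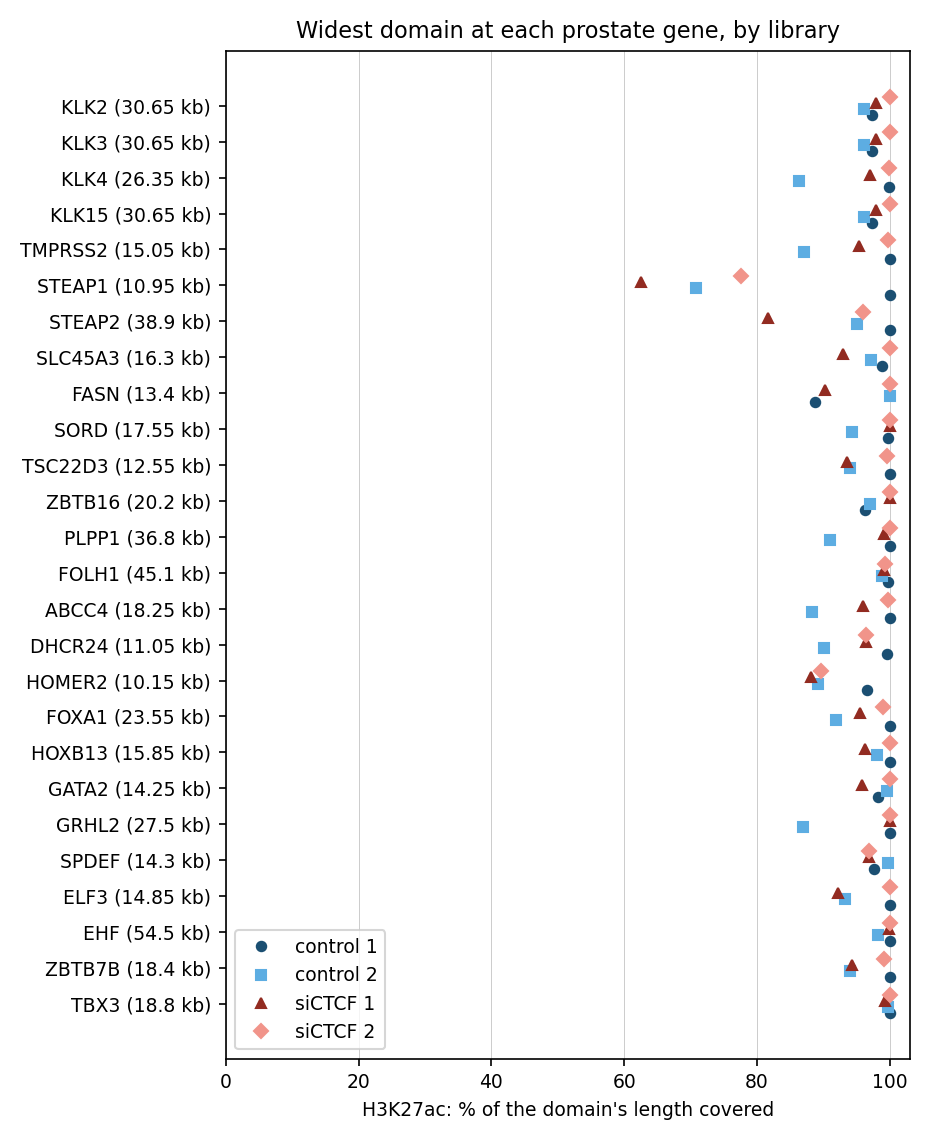
Percent of the length covered by H3K27ac regions in each of the 2 control and 2 siCTCF libraries, for the widest domain at each androgen-induced gene and luminal transcription factor gene plotted. Most points lie above 80%, STEAP1 reaches down to 62.6%, and at SPDEF both siCTCF libraries lie below both controls.

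The 34 domains at the androgen-induced and luminal transcription factor genes were followed into the siCTCF libraries. In the merged siCTCF regions 12 were whole, 17 had grown, 1 had shrunk and 4 were split. Over all 670 wide domains the shares were 32.8%, 44.3%, 3.73% and 19.1%. Cover in both siCTCF libraries was below both controls at 2 of them, among them a domain of 14300 bp at SPDEF, an ETS factor gene, and above both at 6, where 9.25% and 12.2% of all shared regions lay below and above. At SPDEF the cover was 97.6% and 99.7% in the controls and 96.9% in each siCTCF library. Of their 18 control CTCF sites, 0 were persistent, against 2.98% of sites inside all wide domains and 9.26% of all control sites. These 18 sites are too few to tell 0 from either share.

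Among growth genes, the MYC oncogene lay in a domain of 13900 bp, covered over 100% and 87.4% in the controls and 95.0% and 98.2% after CTCF siRNA. CCND1, which encodes cyclin D1, lay in 18700 bp with cover between 99.2% and 100% in every library. The abundant nuclear RNA genes MALAT1 and NEAT1 lay in 26650 and 35650 bp, with 97.6% or more covered in each library. CDH1, which encodes the epithelial adhesion protein E-cadherin, lay in 14550 bp, with 98.6% and 88.3% against 94.5% and 96.2%. The control and siCTCF values overlapped at each of these genes that is given library by library.

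H3K4me3 was common in the wide domains but covered less than the full width. A region present in both control H3K4me3 libraries overlapped 569 domains (84.9%; interval 82.0 to 87.4). The share was 77.6% in H3K27ac regions of 5000 to under 10000 bp and 42.6% over all shared H3K27ac regions. Of the 101 domains without such an H3K4me3 region, 98 held no protein-coding start. The share of the domains' length covered by H3K4me3 was 30.0% and 36.5% in the control libraries and 30.8% and 39.2% after CTCF siRNA. The difference of 1.75 points was smaller than the spread between replicates (exact two-sided permutation p = 0.67, where 2 against 2 libraries cannot give less than 0.33). Per length, control H3K4me3 cover was higher in narrower H3K27ac regions. It was 37.2% and 45.3% in regions of 5000 to under 10000 bp and 32.2% and 41.5% in those under 5000 bp.

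Nearly every domain with H3K4me3 also held an H3K4me3 region after CTCF siRNA, at whatever place in the domain. Of the 569, 554 (97.4%; interval 95.7 to 98.4) held a region in both siCTCF libraries, against 90% of all shared H3K27ac regions with H3K4me3. In regions of 5000 to under 10000 bp the share was 96.4%, and in those under 5000 bp 89.0%. Of the 101 domains without H3K4me3 in both controls, 23 (22.8%) held a region in both siCTCF libraries. Among the 12 widest domains, MIRLET7BHG had the most H3K4me3, with 49.6% and 49.5% in the controls and 44.5% and 51.9% after CTCF siRNA. PRUNE2, whose intron holds the prostate cancer RNA gene PCA3, had 0.781% and 3.12% in the controls and 0.852% and 9.94% after CTCF siRNA, the least in every library but siCTCF replicate 2, where the second stretch of PPFIA2 had 6.78%.

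CTCF sites lay inside 234 domains (34.9%; interval 31.4 to 38.6), against 9.72% of all shared regions. Per length the order was the reverse. The domains held 302 control sites, or 2.70 per 100 kb, against 3.48 in regions of 5000 to under 10000 bp, 4.32 in those under 5000 bp and 1.1 over the chromosomes as a whole. One site lay inside 185 domains, 2 inside 35 and 3 inside 12, while GRB10 held 5 and ST3GAL1 6. By annotation, 141 of the sites lay in introns, 54 in coding exons, 49 in UTRs or non-coding exons and 58 between genes.

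After CTCF siRNA few of these sites kept a peak. Of the 302 sites, 9 were persistent (2.98%; interval 1.58 to 5.57), against 9.26% of all 33377 control sites. The share was 4.62% in regions of 5000 to under 10000 bp, 6.91% in those under 5000 bp and 9.84% outside the shared regions. A peak was present at 10 of the 302 sites in siCTCF replicate 1 (3.31%) and at 36 in siCTCF replicate 2 (11.9%), against 10% and 20.6% of all control sites. Both siCTCF libraries thus gave a lower share inside the domains than over all sites. Replicate 1 was sequenced several times less deeply than replicate 2, and the part of depth in these shares was not tested. Wilson intervals cover counting error only, and neighbouring sites are not independent.

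The comparison differed with the strength of the site. In the 4 equal parts of all control sites by mean control fold enrichment, from the weakest up, 5 of 105, 0 of 70, 3 of 65 and 1 of 62 sites inside the domains were persistent (4.76%, 0%, 4.62% and 1.61%), against 1.22%, 1.83%, 7.44% and 26.5% of all sites. Inside the domains the share was thus lower than over all sites among the strongest. Among the weakest it was higher, but 4 of the 5 persistent sites there had control values of only 1.62 to 2.21. Those sites lay near ANKRD30BL, ZNF33B and ROCK1 and are described below. The 8345 strongest control sites had a mean fold enrichment of 19.01 or more in the control libraries. Of these, 62 lay inside wide domains and 1 of the 62 was persistent (1.61%; interval 0.285 to 8.59), against 26.5% of all 8345. The share was higher in narrower H3K27ac regions, with 11.7% of 162 sites in regions of 5000 to under 10000 bp, 19.3% of 1117 in those under 5000 bp and 28.3% of 7005 outside shared regions. Median fold enrichment differed little between these sets, 24.6 inside the domains and 24.8 over all 8345. A consensus match lay at 79.0% of the 62 sites and at 86.8% of all 8345. By library, 2 of the 62 had a peak in siCTCF replicate 1 (3.23%, against 27.8% of all 8345) and 18 in siCTCF replicate 2 (29.0%, against 55.1%).

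The same sites mostly kept a peak in IMR90. Of the 62, 59 had a peak in both IMR90 control libraries, and 51 of these (86.4%; interval 75.5 to 93.0) kept one in both IMR90 siCTCF libraries, against 88.6% over all 8345. Over all 302 sites inside the domains, 198 (65.6%) were bound in IMR90, against 72.6% of all control sites, and 113 of the 198 (57.1%; interval 50.1 to 63.8) kept a peak there, against 62.2%. Over all control sites the persistent share in LNCaP was 9.26%. The study reported a weaker knockdown of CTCF mRNA in IMR90 than in LNCaP. Its IMR90 siCTCF libraries were also sequenced more deeply than LNCaP siCTCF replicate 1. The part of either in the difference between the 2 lines was not tested. No H3K27ac list of IMR90 was used, so whether the same stretches are wide domains in those cells was not tested.

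**Figure D3:**
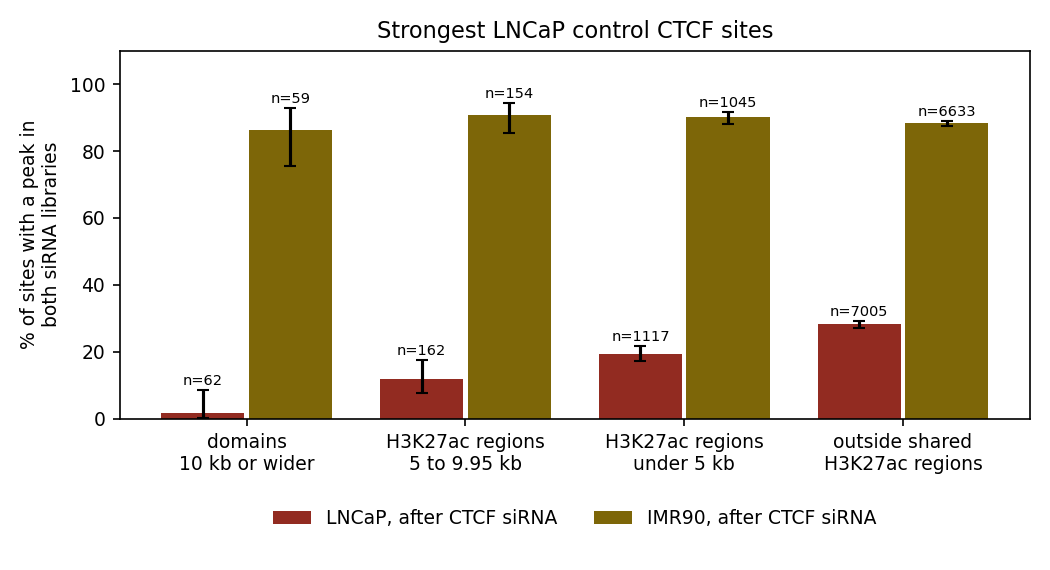
Percent of sites with a peak in both siRNA libraries, in LNCaP (left bar of each pair) and in IMR90 (right bar), for the 8345 strongest LNCaP control CTCF sites, by the width of the H3K27ac region they lie in. Bars carry 95% Wilson intervals and n is the number of sites; the LNCaP share runs from 1.61% in wide domains to 28.3% outside shared regions, while the IMR90 share stays between 86.4% and 90.9%.

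Of the 6 strongest lost sites, 4 had no peak in either siCTCF list. The site in the TRAF4 domain had a fold enrichment of 47.0 and 50.6 in the controls and no peak in either siCTCF library. The one at SLC45A3, a luminal marker that encodes prostein, had 39.2 and 51.2, the one in a TNS2 coding exon 31.0 and 48.0, and the one at RHOF 38.3 and 35.6, all again with no siCTCF peak. At HPN, which encodes the membrane protease hepsin, the values were 32.3 and 46.1, with a peak of 6.51 in siCTCF replicate 1 only. Near RPL3 they were 27.9 and 45.0, with a peak of 13.4 in siCTCF replicate 2 only. All 6 were bound in IMR90 and kept there after siRNA.

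Of the 9 persistent sites inside domains, 4 lay away from assembly gaps with a fold enrichment of 6.57 or more in every library. The site in an FBXL17 intron, the strongest, had a fold enrichment of 21.1 and 22.4 in the controls and 6.57 and 13.5 after CTCF siRNA. The TLCD1 site had 17.8 and 16.7 against 8.79 and 13.3, and the one at the right end of the MALAT1 domain 15.1 and 16.0 against 6.57 and 14.9. All 3 had lower values in both siCTCF libraries and were bound in IMR90 under both treatments. The fourth, in a KDM6A intron, had 6.79 and 8.94 in the controls and 10.1 and 12.5 after CTCF siRNA, held no consensus match and was not bound in IMR90. Fold enrichment is the height over background within one library, so its values are not on a common scale across libraries.

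The other 5 persistent sites were weaker or lay near unassembled sequence. One, at LSP1P5, had 16.4 and 16.0 in the controls and 6.63 and 8.70 after CTCF siRNA. The other 4, 2 near ANKRD30BL, 1 near ZNF33B and 1 near ROCK1, had control values of 1.62 to 2.21 and siCTCF values of 2.77 to 4.09, higher after siRNA in both libraries. The LSP1P5, ZNF33B and ROCK1 sites lay in the 13 domains found no more than 1000000 bp from a run of unknown bases of that length or longer. Together these 13 held 10 and 8 CTCF peaks in the controls and 40 and 18 after CTCF siRNA.

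Counted per library, CTCF peaks inside the domains numbered 368 and 424 in the controls and 49 and 60 after CTCF siRNA, a mean difference of -341.5 (exact two-sided permutation p = 0.33, the smallest possible). In the 657 domains away from assembly gaps the numbers were 358 and 416 against 9 and 42, and 6 of 295 sites (2.03%; interval 0.935 to 4.37) were persistent, against 9.24% of all sites away from gaps. The whole lists held 37969 and 46293 peaks in the controls and 3711 and 7716 after CTCF siRNA. In IMR90 the peaks inside the same stretches numbered 293 and 315 in the controls and 152 and 140 after CTCF siRNA.

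The share of domain ends with a CTCF site was close to that of the next narrower regions. A control site lay within 2000 bp of 139 of the 1340 ends (10.4%; interval 8.85 to 12.1). In regions of 5000 to under 10000 bp the share was 9.75%. Over all shared regions it was also 10.4%, but a single site in a narrow region can count for both its ends. Both ends had a site at 9 domains. By distance, site density was 1.42 to 2.16 per 100 kb in each of the 10 kb outside the ends, 2.76 in the first 1000 bp inside, and highest at 3.96 between 1000 and 2000 bp inside. Regions of 5000 to under 10000 bp showed a like profile, with 3.85 at that distance. Of the site and end pairs with a consensus match, the match pointed into the domain in 54 and out of it in 45.

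Persistent sites lay at 4 ends. At the left of the PTPRF domain, a receptor phosphatase gene, a site 30 bases of which are printed above had 27.7 and 30.8 in the controls and 11.0 and 11.3 after CTCF siRNA. At SPATA20 a site in a coding exon had 19.7 and 12.9 against 8.44 and 9.04. The others were the MALAT1 and ROCK1 sites already described.

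**Figure D4:**
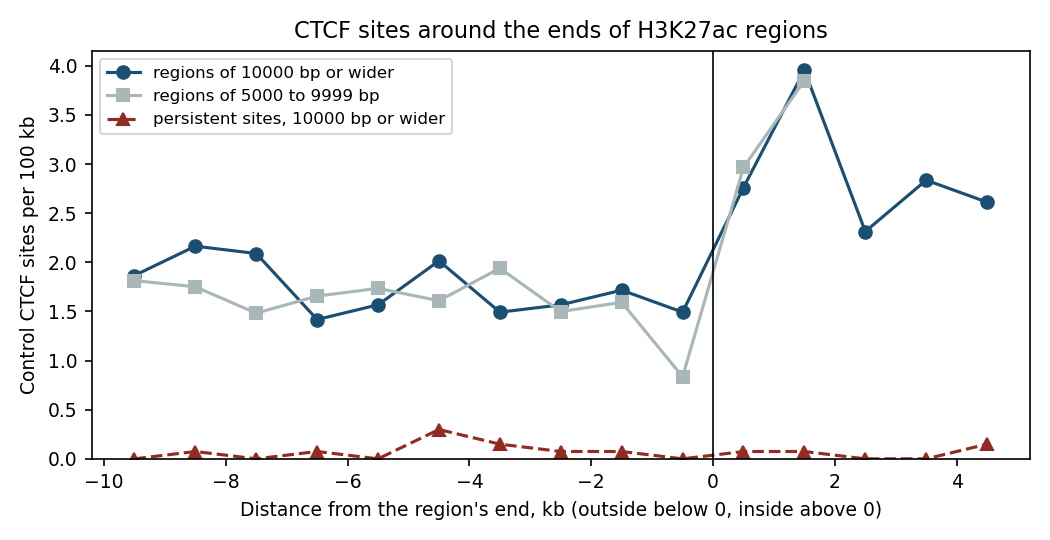
Control CTCF sites per 100 kb by distance from the end of the region (outside below 0, inside above 0) for wide domains and for regions of 5000 to under 10000 bp, and persistent sites for wide domains alone. Density in both classes is highest between 1000 and 2000 bp inside the end, at 3.96 and 3.85, and persistent sites stay at or below 0.299 per 100 kb.

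The flanks just outside the ends gave no larger change where a CTCF site was lost. H3K27ac covered 31.1% and 24.3% of the 5000 bp outside the 135 ends with a lost site in the controls and 34.0% and 47.6% after CTCF siRNA, a difference of 13.1 points. At the 1201 ends with no site it covered 39.2% and 27.2% against 43.2% and 53.3%, a difference of 15.0 points. Cover was highest in siCTCF replicate 2, whose H3K27ac regions were the widest of the 4 lists, with a median of 1700 bp against 1300 to 1350 bp. The ends were set where the control regions stopped, so the bases next to them were uncovered in both controls by choice. Some rise after CTCF siRNA was therefore built in for every class of end. With 4 ends, the persistent class is too small to compare.

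None of the 670 domains disappeared after CTCF siRNA. In the regions shared by the 2 siCTCF libraries, 220 (32.8%) were whole, meaning that 1 region of within 10% of the control width overlapped them, 297 (44.3%) had grown, 25 (3.73%) had shrunk and 128 (19.1%) were split into 2 or more. Neighbouring domains joined by a single siCTCF region each counted as grown by the full width of that region, as at PPP3CA below. The count of grown domains thus includes the bridging of gaps between domains. In regions of 5000 to under 10000 bp the shares were 34.0% whole, 48.2% grown, 9.15% shrunk, 8.11% split and 0.473% absent. Whole and absent shares were thus close to those of the next narrower regions, while splitting was more frequent in the domains. Over all shared regions the shares were 22.8% whole, 60.2% grown, 7.86% shrunk, 1.39% split and 7.77% absent. An overlap of 1 bp counts as present, so a wide region is less easily absent. In the mirror direction, 1267 wide domains chosen in the siCTCF libraries were followed into the control regions, where 783 were split, 231 whole, 200 shrunk, 46 grown and 7 absent.

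Splitting varied as much between control replicates as between treatments. Followed into one library at a time, 134 domains were split in control replicate 1, 444 in control replicate 2, 309 in siCTCF replicate 1 and 209 in siCTCF replicate 2. Control replicate 2, with 69949 regions, was the shortest H3K27ac list. The share of the domains' length covered was 98.9% and 88.8% in the controls and 94.3% and 96.5% after CTCF siRNA, and both siCTCF values lay between the control values. The median domain was covered over 100%, 91.5%, 97.0% and 99.4% in these libraries. The domains were merged from control regions, so control replicate 1 lay near full cover and siCTCF cover could hardly exceed it. Regions of all 4 libraries were also merged, and 1455 domains present in at least 2 of the 4 were kept. Domains in the siCTCF lists alone could count, and those lists were longer, with 94415 and 98973 regions against 86949 and 69949. Higher siCTCF cover over these domains is thus partly built into the choice. Cover over the 1455 was 83.3% and 71.8% in the controls. After CTCF siRNA it was 88.7% and 96.6% there. Width of called regions does not measure the height of the signal.

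Fates were much alike with and without CTCF sites. Of the 226 domains that held lost sites and no persistent one, 33.2% were whole, 45.6% grown and 18.6% split, and of the 436 with no site inside, 32.3%, 44.5% and 18.8%. They differed more with H3K4me3. Domains without H3K4me3 in both controls were split in 36.6% and shrunk in 11.9% of cases, against 16.0% and 2.28% of those with it. Mean cover of the domains without H3K4me3 was 75.4% in control replicate 2, against 90.2% of those with it, and 99.2% in control replicate 1, against 98.5%.

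Cover in both siCTCF libraries was below both controls at 50 domains (7.46%) and above both at 93 (13.9%). Over all shared regions these shares were 9.25% and 12.2%. A region fully covered in a control library cannot count as above both. Of the 50, 15 held a CTCF site (30.0%), as did 33 of the 93 (35.5%), against 34.9% of all domains. The median difference in cover was -12.6 points among the 50 and 4.23 points among the 93.

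The largest losses were at neighbouring domains. The domain in FOLH1B, chr11:89398851-89411600, was covered over 100% and 61.6% in the controls and 32.5% and 16.9% after CTCF siRNA, and the one beside it near TRIM77 over 100% and 80.5% against 31.0% and 48.1%. FOLH1B is a near-identical copy of FOLH1 and ambiguous reads were discarded by the authors, so its values are uncertain. The part of this in the loss was not tested. At the FOLH1 domain itself cover did not fall. Other large losses lay near PAX1 (100% and 93.4% against 46.1% and 71.8%), in COBL (100% and 85.0% against 55.1% and 65.8%) and in DDC, which encodes an enzyme of dopamine and serotonin synthesis (98.2% and 92.7% against 59.6% and 67.2%). DDC and COBL lie on opposite sides of GRB10. None of these 5 domains held a control CTCF site.

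The largest gains of cover rested on control replicate 2. At PPP3CA, a domain at chr4:102241251-102254350 was covered over 100% and 43.9% in the controls and 100% in both siCTCF libraries, and others at PPP3CA and MIR99AHG showed the same pattern, with cover of 37.6% to 45.4% in control replicate 2 and 91.8% or more in the other 3 libraries. In the siCTCF regions a single region of 242650 bp joined the 7 domains of the PPP3CA cluster, which gave the 3 largest growths, by 18.5 to 21.7 times the control width. The cluster held 1 control CTCF site in its widest domain.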

How the data were processed

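ChIP-seq of 16 libraries was used, 12 of LNCaP and 4 CTCF libraries of IMR90, with 2 libraries per treatment. The 4 low-cell IMR90 libraries were not used. Bowtie was used by the authors for alignment to hg19, and they discarded ambiguous and clonal reads. The deposited histone lists hold regions called per library with PeakRanger, with a score whose meaning the files do not give. It served only to rank regions when lists were shortened. The deposited CTCF lists hold peaks called per library by the authors with MACS2, with the fold enrichment of each peak over local background. No list was pooled or holds read counts, so no interval here draws on read depth, and a longer list can cover more without more signal. Read totals are stated by the study and were not used as a correction here. By those totals siCTCF replicate 1 of LNCaP CTCF was sequenced several times less deeply than siCTCF replicate 2 and the controls.

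Regions and sites were compared by overlap of 1 bp in Python 3.11.15 with numpy 2.4.6 and scipy 1.17.1, and genes came from GENCODE 44 lifted to GRCh37. Region positions were taken as deposited, converted to 1-based starts. Shares carry 95% Wilson intervals, and library values were compared by exact permutation of 2 against 2 libraries. The scripts were tested on simulated data.

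The domains and gene lists were chosen with earlier results of these data known. Named were the 12 widest domains, the 5 largest gains and losses of cover, the 3 largest growths, the 3 regions on each side of the width limit, the 6 strongest persistent and lost sites inside, the 4 strongest persistent end sites, and genes of the fixed lists, of which some are not reported here. Genes named outside that rule were chosen after their values were seen. Alternatives changed the width limit, merging, margins, distances, list lengths, fold enrichment and libraries used. Leaving out domains near assembly gaps was chosen after seeing the data.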

Additional observations from a re-analysis of the deposited data

How the results depend on the processing

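Of 68 alternative values, 48 stayed within the spread or range set for them, 17 moved and 3 changed sign. The number of domains, 670, became 1155 with a limit of 8000 bp, 215 with 15000 bp, 1378 with regions up to 1000 bp apart merged, and 336 to 597 with one control library alone (336 without control replicate 1). The whole share, 32.8%, was 43.4% with a 20% margin, and 18.2% in the mirror direction, where 3.63% were grown and 61.8% split. With one siCTCF library left out, 31.5% to 36.4% were whole, 14.03% to 34.9% grown and 31.2% to 46.1% split. The difference in H3K27ac cover, 1.57 points, ranged from -3.48 (without control replicate 2) to 6.62 with a library left out. It was 15.1 over 1455 domains merged from all 4 libraries and present in at least 2, a choice that favours the longer siCTCF lists. The difference in H3K4me3 cover, 1.75 points, ranged from -2.41 (without siCTCF replicate 2) to 5.91, with -1.49 without control replicate 1. The persistent share, 2.98%, was 1.89% with a fold enrichment of at least 5 and 2.03% without domains near assembly gaps. With a library left out it ranged from 2.12% to 11.9%, the highest without siCTCF replicate 1, where 20.6% of all sites had a peak. The share of ends with a site, 10.4%, was 5.45% within 1000 bp, 21.7% within 5000 bp and 11.0% at ends of the stretch covered in both controls, and that with a start site, 36.3%, was 40.7% with 2000 bp allowed. The cause of these changes was not tested beyond what each setting itself changes. With the replicate block, the differences of 1.57 and 1.75 points and of -341.5 CTCF peaks were the same, with exact permutation p of 0.5 for H3K4me3 and 0.5 for CTCF peaks. The H3K27ac difference is given with no test, since those libraries chose the domains. Deviations of same-numbered libraries over the domains correlated at -0.0260 for H3K27ac and 0.325 for H3K4me3, and nothing in the labels says that a number marks a shared culture. The lists hold no read counts, and the shallow sequencing of siCTCF replicate 1 for CTCF was not corrected for; its part in the persistent share was not tested. In addition, 2 libraries per group cannot reach p below 0.33, and covered length does not measure signal height.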
